A study of Rattus norvegicus with 164 samples.

Results

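The 70 genes described here encode proteins of the cytosolic ribosome, 29 of the small subunit, 38 of the large subunit and 3 of the stalk of the large subunit. They are the autosomal genes of the expression table whose symbol has the form Rpl or Rps with a number, or is Rplp0, Rplp1, Rplp2 or Rpsa, and whose mean level over 130 libraries was at least 3 on the log2(CPM + 1) scale (CPM, counts scaled to 1000000 per library). One gene was left out by name. They are 70 of 38354 genes in the table and lie on 18 chromosomes. They were chosen by their mean level in these libraries and with their shared movement already known, so both are given as descriptions.

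Ribosomes hold these proteins in fixed proportions, and cells make the proteins in matched amounts. Most of their mRNAs begin with a short stretch of pyrimidines, the terminal oligopyrimidine tract, through which mTOR signalling and Larp1 set how much of the mRNA is translated. In the brain, ribosomes serve the cell bodies of neurons and glia and also local translation in dendrites and axons.

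The RNA, selected for polyA tails, came from the prelimbic cortex, a medial prefrontal region, of heterogeneous stock rats, an outbred population. The libraries are divided by the kind of animal identifier: 68 carry a decimal number, 51 a code that begins with E21DCD, and 11 such a code given to a library that was first named unknown. The labels put the new name of these 11 down to the correction of a genotype mismatch, and they are called reassigned here. The labels name no treatment, and sex, age, litter and dates are not given in the sources used here. The identifier is the only label that divides the libraries, so anything that went with it cannot be told apart from it. Nothing says that libraries came from separate animals beyond the separate identifiers, and p-values measure only the spread between these libraries. In bulk tissue, fewer cells of a type and less RNA per cell cannot be told apart.

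Library depth, in units of 1000000 estimated counts, was 15.1 to 55.95. In 11 decimal libraries the summed markers of striatal neurons (12.24 to 12.80, log2 of summed CPM) stood above the range of the other 119 (7.75 to 9.60), although the label is the same cortex; these are called striatal-like. A further 7 libraries, decimal replicate 15 and E21DCD replicates 2, 4, 8, 19, 30 and 49, scored over 0.2 at one end of the first principal component of the rest. The members contribute to that component, so leaving these end libraries out partly selects on the members' own levels. In decimal replicate 15 a single gene took 15.1% of the counts, against at most 2.56% in the other 129 libraries. Results are given with and without these libraries.

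Because the pyrimidine tract is the known sequence mark of this family, the bases around the annotated start were read from the RefSeq promoter table (GRCr8), which held 57 of the 70 members; 13 had no entry. Shown are 6 members with a run of at least 8 pyrimidines that reaches within 10 bases of the start and 2 without one, among those whose table start equals the deposited position. Each line gives 50 bases, 25 before the start and 25 from it on, 5′ to 3′ on the gene's strand, with the bases of the run in capitals. Rpl21 lies at chr12:13386129-13386178 on the minus strand, Rplp1 at chr8:71290848-71290897 on the minus strand, Rps21 at chr3:187724013-187724062 on the plus strand and Rps28 at chr7:15311309-15311358 on the minus strand. Rpl10a lies at chr20:6390508-6390557, Rpl7a at chr3:30637111-30637160 and Rpl12 at chr3:36661915-36661964, all on the plus strand, and Rpl24 at chr11:58128381-58128430 on the minus strand. The run of Rpl7a is 24 bases long and begins before its window.
Rpl21: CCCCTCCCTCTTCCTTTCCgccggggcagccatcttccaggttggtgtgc
Rplp1: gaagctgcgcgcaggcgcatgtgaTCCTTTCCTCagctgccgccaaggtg
Rps21: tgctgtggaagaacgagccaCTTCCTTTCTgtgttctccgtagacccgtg
Rps28: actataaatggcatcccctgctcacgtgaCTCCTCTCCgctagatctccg
Rpl10a: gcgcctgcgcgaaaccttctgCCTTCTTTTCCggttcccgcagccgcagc
Rpl7a: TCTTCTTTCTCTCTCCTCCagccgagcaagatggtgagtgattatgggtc
Rpl12: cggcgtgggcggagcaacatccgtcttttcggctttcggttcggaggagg
Rpl24: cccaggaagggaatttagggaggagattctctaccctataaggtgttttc

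Of the 57 members with an entry, 42 (73.7%) had such a run, against 13.2% of all 27457 promoters in the table. Over the full window of 250 bases before to 50 after the start, on both strands, CTTTCC stood in 49.1% of the members and 26.4% of all promoters. CCGGAAG, a motif of ETS-family factors such as GABP, stood in 29.8% of the members and 9.22% of all. AAGATGGCG, a motif of YY1, stood in 5.26% and 1.93%, and TATAAA in 7.02% and 14.3%. A match is a description of the letters, and 34 of the 57 table starts differ from the deposited position.

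Across libraries the members moved as a block. The Pearson r of each member with the mean of the other 69 over 130 libraries had a median of 0.94, with 54 of the 70 members at 0.9 or more, while other tested genes had a median r of -0.15 with the member mean and 0.378% of them reached 0.9. All values in a library share its depth scaling and its RNA, so these r are descriptions and carry no p. Without the 18 libraries that stand apart (n = 112) the median r was 0.92 and 41 members reached 0.9. Within groups, again without the 18, the median r was 0.93 in the decimal libraries (n = 56), 0.85 in the E21DCD libraries (n = 45) and 0.82 in the reassigned libraries (n = 11). The small subunit (median r 0.94), the large subunit (0.94) and the stalk (0.91) had like values over all libraries.

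**Figure D1:**
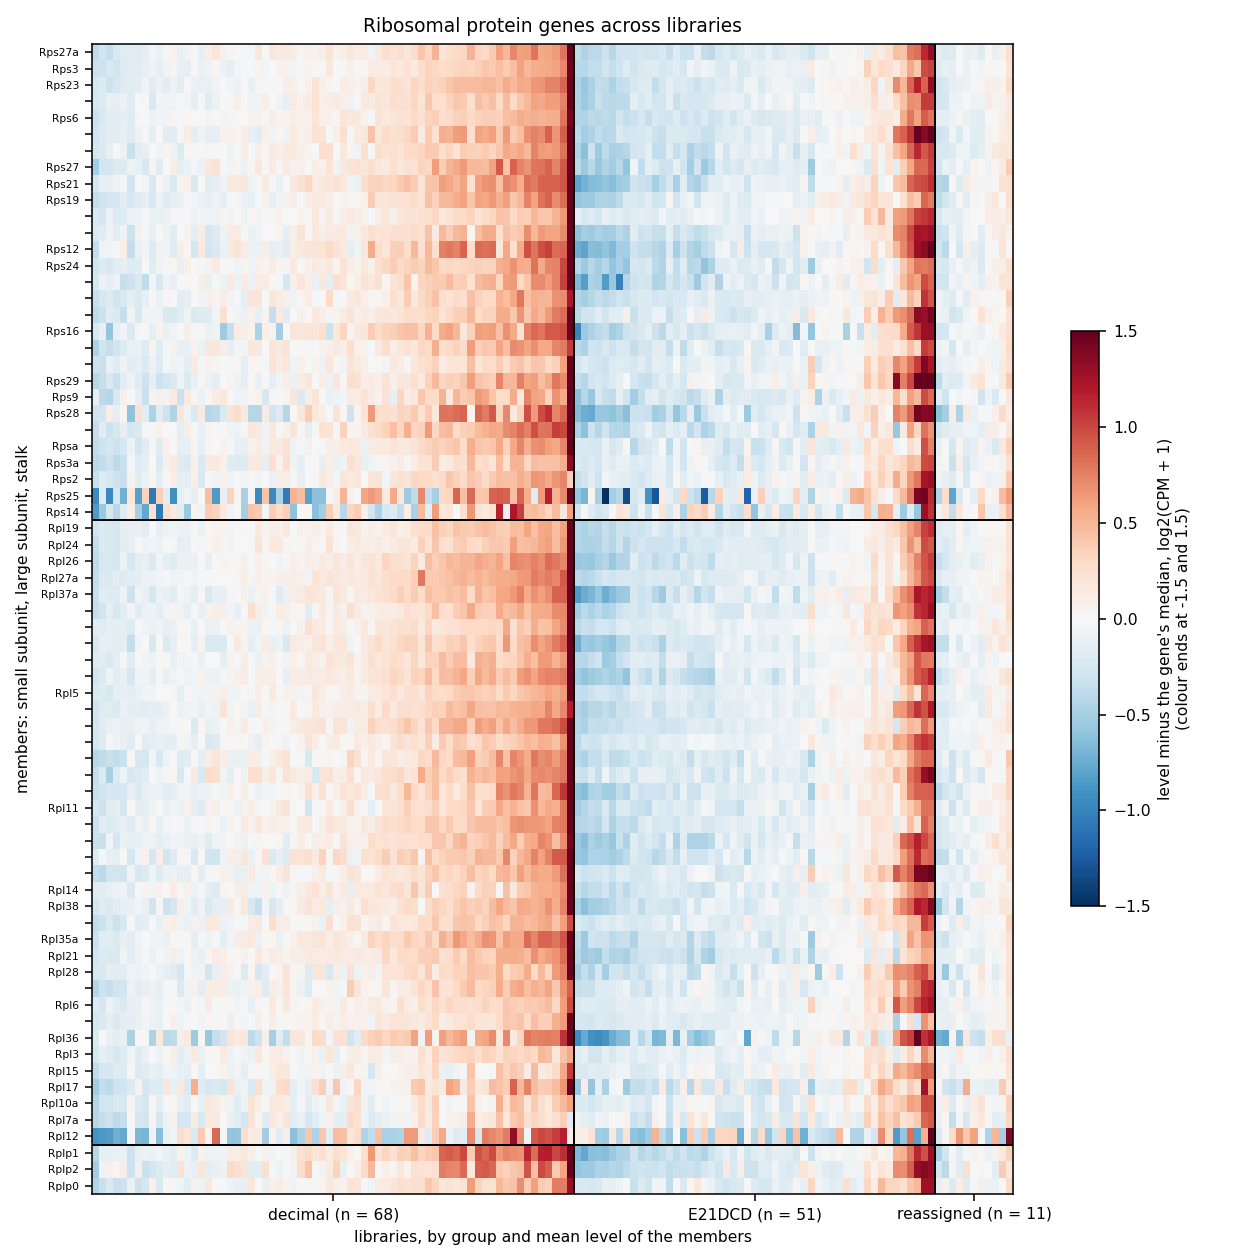
Level of each of the 70 members (vertical axis, grouped as small subunit, large subunit and stalk) in each of the 130 libraries (horizontal axis, by group and then by mean member level); colour is the level minus the gene's median on the log2(CPM + 1) scale and ends at -1.5 and 1.5. Most columns have 1 colour from top to bottom, while Rps25, Rps14, Rpl17, Rpl36 and Rpl12 break the columns.

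Among the tightest members were Rpl19 (r 0.98), Rpl24, Rps27a, Rpl26, Rps3, Rps23, Rps6, Rpl27a and Rpl37a (r 0.97 to 0.98). Rpl19, a protein of the large subunit that takes part in a bridge between the subunits, ran from 7.95 over a median of 8.31 to 9.96 in the decimal libraries, from 7.75 over 8.04 to 9.32 in the E21DCD libraries and from 8.04 over 8.23 to 8.44 in the reassigned libraries. Rps27a, made as a fusion with ubiquitin, ran from 7.42 over 7.93 to 10.02, from 7.33 over 7.60 to 9.12 and from 7.59 over 7.69 to 8.05 in the same groups. For both genes the groups overlapped, and the spread within the decimal and E21DCD groups exceeded the distance between their medians. Taken relative to the mean of the other members in the same library, Rpl19 varied with an SD of only 0.06, against a median of 0.14 over the members.

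**Figure D2:**
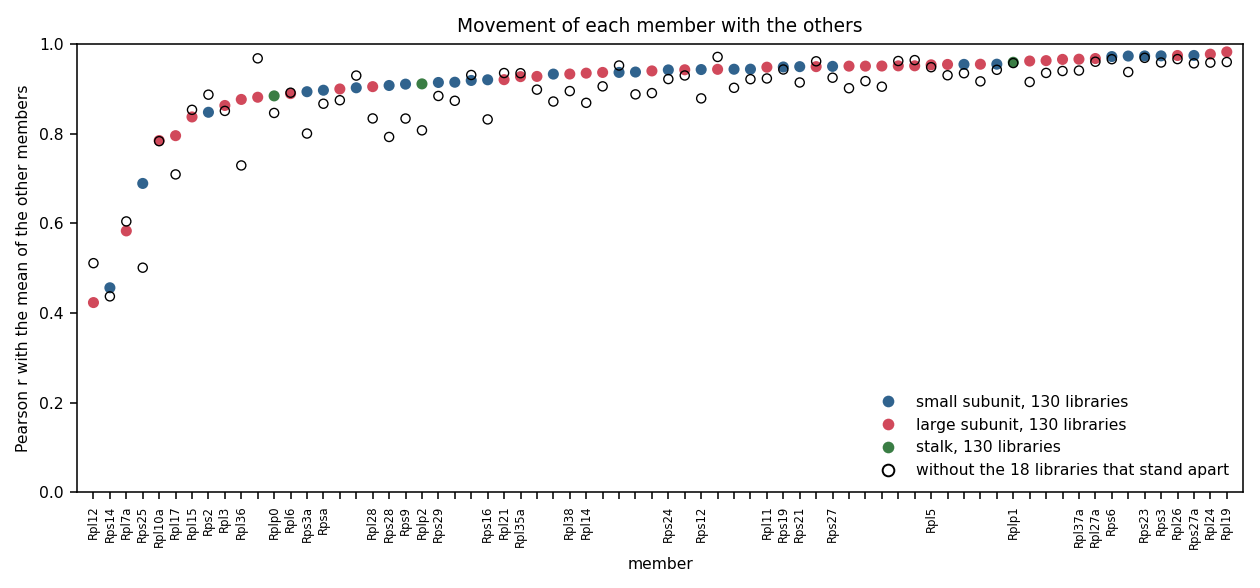
Pearson r of each member with the mean of the other members (vertical axis) for the 70 members (horizontal axis, in ascending order), with filled points for all 130 libraries coloured by role and open points without the 18 libraries that stand apart. Rpl12, Rps14 and Rpl7a are lowest over all libraries at 0.42, 0.46 and 0.58, and most members lie above 0.9.

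Together the members took a median of 1.27% of a library's estimated counts, with a range of 0.957% to 5.42%. The median was 1.35% in the decimal libraries, 1.15% in the E21DCD libraries and 1.23% in the reassigned libraries. The highest share, 5.42%, was in decimal replicate 15, and the next were E21DCD replicates 19 (2.62%) and 8 (2.59%), both end libraries. The small subunit summed to between 0.67 and 0.80 of the large subunit without the stalk over the 130 libraries, a narrower range than that of the members' share.

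In decimal replicate 15, 59 of the 70 members had their highest value of all 130 libraries, as 8.1% of all tested genes did, while 51.6% of all tested genes had their lowest value there. The median excess of the members was 1.94 over the median of the libraries without it and without the striatal-like ones. The members were not raised evenly there. Rpl38 stood 3.66 above that median, Rplp1 3.42 and Rpl36 3.31, whereas Rpl12 stood only 0.08 above it and Rpl7a at -0.14. In the 11 striatal-like libraries 68 of 70 medians were above those of the other libraries (54.4% of all tested genes), by a median of 0.42, and no member had all 11 above all others.

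The summed microglial markers (7 of 7 found) moved with the member mean at r 0.75 over the 118 libraries without the striatal-like ones and decimal replicate 15, the oligodendrocyte markers (8 of 8) at 0.65, the oligodendrocyte precursor markers (5 of 5) at 0.63, the ependymal markers (3 of 4, with Tmem212 near 0) at 0.62 and the blood markers (5 of 5) at 0.59. Without the 18 libraries, microglial markers had r 0.77 in the decimal, 0.55 in the E21DCD and 0.61 in the reassigned libraries. Oligodendrocyte markers had r 0.60, 0.36 and -0.005, and blood markers 0.50, 0.32 and 0.53. Precursor markers had r 0.58, 0.47 and 0.26, ependymal markers 0.71, 0.34 and 0.48, and astrocyte markers 0.60, -0.21 and 0.31. Microglial markers, as log2 of summed CPM, spanned 7.83 to 8.82 (median 8.20) in the decimal libraries without the striatal-like ones and 7.73 to 8.69 (median 8.04) in the E21DCD libraries. Oligodendrocyte markers spanned 10.59 to 14.38 (median 12.09) and 10.14 to 13.68 (median 11.53), and blood markers 6.27 to 10.25 (median 7.93) and 6.29 to 9.30 (median 7.64). No microglial, oligodendrocyte or blood marker had a median near 0 over the libraries, and the markers' part in the members' levels was not tested. Cortical glutamatergic markers (7 of 7) were at 10.89 to 13.00 outside the striatal-like libraries and at 10.91 to 11.44 in these. Their r with the member mean was 0.06 over the 118 libraries, and 0.21, -0.37 and 0.07 in the decimal, E21DCD and reassigned libraries without the 18. Striatal neuron markers (9 of 9, with Isl1 near 0) had r 0.45 over the 118 libraries, and 0.27, 0.47 and 0.45 in the same groups.

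Among the genes outside the family whose level was most like the member mean, by r over the 119 libraries without the striatal-like ones, were Fau (0.96), which encodes a small-subunit protein fused to a ubiquitin-like protein, Atp5f1e (0.96), a subunit of ATP synthase, and Ndufb9 (0.96), a subunit of respiratory complex I. Gpx4, Enho, Selenow, S100a13, Eef1b2, Cox6c, Lamtor4, Ndufa6, Lsm4, Tmem256 and Mrpl52 followed at 0.93 to 0.96. Of these, Atp5f1e, Ndufb9, Cox6c and Ndufa6 belong to oxidative phosphorylation. Running most opposite to the members were Synj1 (-0.94), a phosphatase of synaptic vesicle recycling, Dmxl2, Csrnp3, Scn2a, a neuronal sodium channel, Wdr7, Atp8a2, Marchf6, Ntrk3, Lpgat1 and Rabgap1l (-0.93 to -0.92).

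Related genes were taken as fixed lists and described by r over 118 libraries. The ribosomal genes that the rule leaves out moved with the members: Rpl10 had r 0.91, Rpl36a 0.88 and Rpl39 0.94, and Rps4x, Fau and Rack1 had a median of 0.93. Other mRNAs known for a terminal oligopyrimidine tract had a median of 0.73 over 21 tested genes. Eef1g (0.92) and Eef1b2 (0.92), both of elongation factor eEF1, were near the members, with Eef1a1 at 0.65 and Eif4b at -0.47. Over 112 libraries the median of these mRNAs was 0.65 and Eif4b had r -0.23. The mitochondrial ribosome, which has its own proteins, had a median of 0.65 in its large and 0.72 in its small subunit, and respiratory chain genes had 0.77. Genes that build or control cytosolic ribosomes were divided. The median was 0.12 for ribosome biogenesis, but Sbds, a factor of large-subunit maturation, had r 0.79. Nhp2 and Nop10, of H/ACA particles, had 0.78 and 0.76, against -0.46 for Ncl. Over 112 libraries the median was 0.21, with Sbds at 0.79, Nhp2 at 0.68, Nop10 at 0.72 and Ncl at 0.009. Initiation factors had a median of 0.31 (0.29 over 112 libraries), with Eif1 at 0.78, Eif3m at 0.77 and Eif4g1 at -0.72. Genes of RNA polymerase I had a median of -0.27 (-0.13 over 112 libraries). For mTOR and the regulators of these mRNAs the median was -0.39 over 118 libraries and -0.14 over 112, with Eif4ebp1 (0.83) and Akt1s1 (0.77) moving with the members and Mtor (-0.81), Rptor (-0.75) and Larp1 (-0.39) against them.

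Among the symbols of the family, 2 lay just under the level of 3: Rpl37 (mean 2.51) and Rps20 (2.53). Rps28 (5.11) and Rpl36 (5.74) are the lowest members above it. The low symbols did not move with the family, with r 0.36 for Rpl37 and -0.55 for Rps20. The entries Rpl37l1 (mean 7.11) and Rps20-ps11 (mean 6.65) did, with r 0.97 each. RefSeq lists Rpl37 as another name of Rpl37l1 and types Rps20-ps11 as a transcribed pseudogene.

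Against this block, single members stood apart, and they did so in different ways. The lowest r with the others belonged to Rpl12 (0.42), Rps14 (0.46), Rpl7a (0.58), Rps25 (0.69), Rpl10a (0.78), Rpl17 (0.80), Rpl15, Rps2, Rpl3 and Rpl36 (0.84 to 0.88). The largest SD of the relative level, which is the member's level minus the mean of the others in the same library, belonged to Rpl12 (0.51), Rps25 (0.45), Rps14 (0.39), Rpl36 (0.32) and Rpl7a (0.28). Rps28, Rplp1, Rps29, Rpl17 and Rps12 followed at 0.22 to 0.27.

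**Figure D3:**
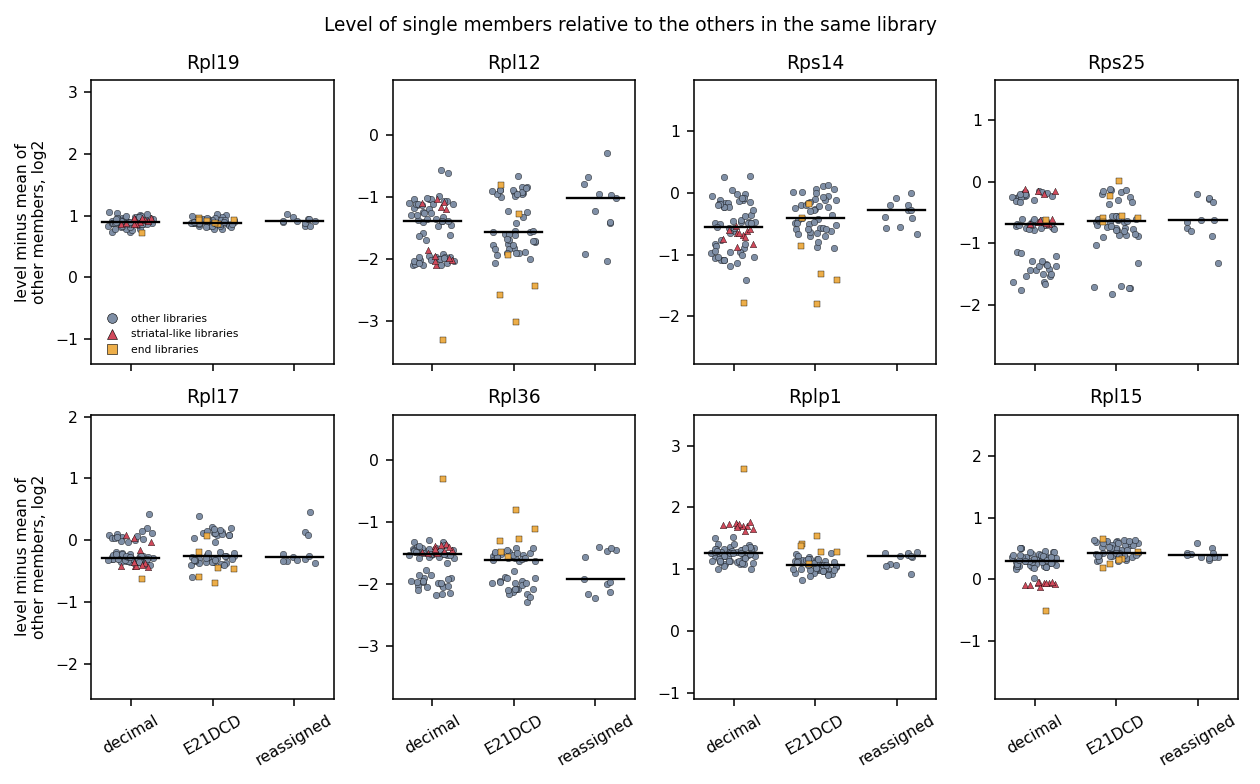
Level of 8 members minus the mean of the other members in the same library (vertical axis, log2 scale, the same span in each panel) by identifier group (horizontal axis); each point is a library, triangles are striatal-like, squares are end libraries and bars are group medians. Rpl19 forms a narrow band, Rps25 and Rpl17 fall into separate bands in every group, and Rplp1 and Rpl15 stand apart in the triangles.

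Rpl12, a protein at the base of the stalk, had the largest spread. Its relative level ran from -3.31 over a median of -1.39 to -0.56 in the decimal libraries, from -3.03 over -1.57 to -0.66 in the E21DCD libraries and from -2.04 over -1.02 to -0.28 in the reassigned libraries. The groups overlapped, and the lowest value was in decimal replicate 15. Chosen after the values were seen, as the gene whose level ran most against this relative level, LOC102555453 on chromosome X (RefSeq end 3750827, typed as protein coding) had r -0.66 with it over 118 libraries. Without the 18 libraries r was -0.55 in the decimal, -0.88 in the E21DCD and -0.75 in the reassigned libraries. LOC102555453 ran from 0 over a median of 5.98 to 7.46, and it held between 0 and 77.5% (median 53.4%) of the summed CPM of the pair. When the pair was summed, the SD relative to the other members was 0.23 in place of 0.51 over 130 libraries, and 0.12 in place of 0.44 over 112. The r with the other members was then 0.75 in place of 0.42, and 0.90 in place of 0.51 over 112. Since LOC102555453 was picked for running against Rpl12, a smaller SD and a higher r of the sum were partly built into that choice.

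Rps14, a protein of the small-subunit platform whose loss is a cause of anaemia in the 5q- syndrome, had a relative level of -1.78 over -0.56 to 0.27 in the decimal, of -1.80 over -0.41 to 0.13 in the E21DCD and of -0.67 over -0.29 to -0.003 in the reassigned libraries. The 5 lowest libraries, 4 of them end libraries, lay below a gap of 0.13. Rps14-ps7, typed as a transcribed pseudogene on chromosome 5, ran from 0 over 6.05 to 9.15 and was highest in decimal replicate 15. Its r with the relative level of Rps14 was -0.33 over 118 libraries. Without the 18 libraries it was -0.42 in the decimal, -0.78 in the E21DCD and -0.63 in the reassigned libraries. Other genes ran more strongly against the relative level of Rps14, among them Haus8l2 and Basp1 with r -0.82 each over 118 libraries. Summed with Rps14-ps7, Rps14 had an SD of 0.22 in place of 0.39 over 130 libraries, and 0.15 in place of 0.35 over 112.

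Rps25, a small-subunit protein used in initiation at internal ribosome entry sites, showed separate bands. Its relative level ran from -1.75 over -0.68 to -0.12 in the decimal, from -1.82 over -0.65 to 0.02 in the E21DCD and from -1.32 over -0.63 to -0.19 in the reassigned libraries. Sorted over 130 libraries it had the widest gap of any member, 0.19, where the median of the widest gaps with at least 5 libraries on each side was 0.04. Above the gap lay 21 decimal, 12 E21DCD and 4 reassigned libraries, 4 of them striatal-like and 2 end libraries. Unlike Rpl12 and Rps14, its SD hardly moved when its copy Rps25-ps11 (median 2.01) was added, 0.41 in place of 0.45. The copy held a median of 3.32% of the pair. Even so, Rps25-ps11 had the strongest r of any gene with the relative level of Rps25, -0.58 over 118 libraries. Without the 18 libraries that r was -0.75 in the decimal, -0.30 in the E21DCD and -0.71 in the reassigned libraries.

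Of the 10 genes with the strongest r with the relative level of Rps25 over 118 libraries, 3 lie within 1000 kb of it on chromosome 8: Scn2b (r -0.55, 692 kb away), a sodium channel subunit, Atp5mg (-0.51, 500.1 kb), an ATP synthase subunit, and Il10ra (-0.49, 844 kb), a cytokine receptor. Scn2b had r -0.70, -0.66 and -0.71 in the decimal, E21DCD and reassigned libraries without the 18. Rps9 was the only other member with 3 such neighbours: Pira2 (r 0.74, 147 kb), Tsen34 (-0.46, 10.04 kb) and Pirb (-0.44, 15.96 kb), with r of 0.70, 0.77 and 0.81 for Pira2 in the groups. Rpl28 had 1, Syt5 (r 0.53, 236.5 kb), whose r was uneven over the groups, with 0.22, 0.74 and 0.85 in the decimal, E21DCD and reassigned libraries without the 18. In all, 66 of the 70 members had no gene within 1000 kb among their 10 strongest.

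**Figure D4:**
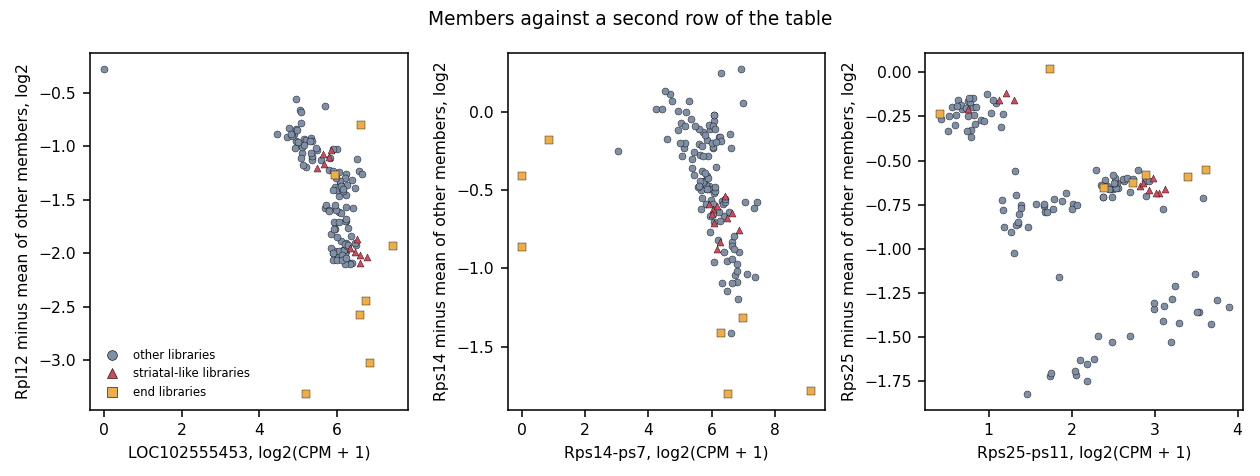
Relative level of Rpl12, Rps14 and Rps25 (vertical axes, member minus the mean of the other members, log2 scale) against the level of LOC102555453, Rps14-ps7 and Rps25-ps11 (horizontal axes, log2(CPM + 1)) in 130 libraries, with triangles for striatal-like and squares for end libraries. Rpl12 is lower where LOC102555453 is higher, and Rps25 lies in bands.

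Rpl17, which lies at the exit of the peptide tunnel, also split: 92 libraries lay below a gap of 0.12 and 38 above it, namely 18 decimal, 17 E21DCD and 3 reassigned. Rps16 had 14 libraries, 7 decimal and 7 E21DCD, below a gap of 0.12, and none of them was striatal-like or an end library. Neither gene had a neighbour within 1000 kb among its 10 strongest. Rpl36 had 51 libraries from all groups (22 decimal, 23 E21DCD and 6 reassigned) below a gap of 0.11. In all, 9 members had a widest gap of at least 0.1: these 3, Rps25, Rpl15 (0.15), Rpl3 (0.13), Rps14 (0.13), Rpl14 (0.10) and Rpl12 (0.10). Gaps are given for members only, with no share over all tested genes, and are not scaled to the SD. The count is thus a description, and Rpl12 had the largest SD of the members.

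A further set stood apart in the striatal-like libraries. Rplp1, a P protein of the stalk that helps recruit translation factors, had a relative level of 1.62 to 1.77 in these 11 libraries, and all 11 were among the 15 above its gap. Rps12 had all 11 among the 14 above its gap, with -0.53 to -0.41. Rpl15 had all 11 among the 13 below its gap, at -0.13 to -0.04, and Rpl10a had 10 of 11 among the 11 below its gap. Compared with their own relative level in the other libraries, Rplp1 and Rps12 were thus high there, and Rpl15 and Rpl10a low. In the end libraries Rpl21 had 5 of 7 below its gap and Rpl35a 4, all E21DCD. Apart from that of Rpl15, the gaps of the members in this set were under 0.1.

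The relative levels were also tied to each other. Over 118 libraries the first component of the relative levels held 35.4% of their variance, with Rps14, Rpl12, Rpl7a, Rpsa, Rps3a, Rpl10a, Rpl3 and Rplp0 at one end and Rpl36, Rps28, Rps25, Rps12 and Rps21 at the other. Its score lay above 0 in 22 of 56 decimal, 26 of 51 E21DCD and 6 of 11 reassigned libraries. It had r -0.10 with log2 depth, -0.42 with the member mean and -0.47 with the first principal component of all genes. Outside the family its score ran most against Basp1 (r -0.89), a membrane protein of growth cones, Haus8l2 (-0.84), Jund (-0.83), a subunit of AP-1, and Ndufb10 (-0.82), and most with Tnfaip1 (0.81) and Sdha (0.79), a subunit of respiratory complex II.

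Among the 2415 pairs of members the median absolute r of relative levels was 0.28, and 29 pairs reached 0.8. Rpl7a and Rpl10a went together (r 0.90 over 118 libraries; 0.91, 0.86 and 0.93 in the decimal, E21DCD and reassigned libraries without the 18). Rpl7a and Rps21 went apart (-0.87; -0.89, -0.84 and -0.73), as did Rpl36 and Rps14 (-0.83; -0.85, -0.80 and -0.75). Relative levels are set against a shared mean, which ties them to each other.

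Members also followed the block with unequal slopes. Per unit of the mean of the others, the slope over 112 libraries ran from 0.54 for Rpl3 and 0.58 for Rpl7a to 1.34 for Rpl37a and 1.42 for Rplp1, with a median of 1.01. Rpl3, which lies close to the peptidyl transferase centre, thus had under 1 unit of movement per unit of the block. Pseudogenes and near-identical copies are many in this family. The counting estimates how reads that fit several transcripts are divided, so a member and its near-identical copies cannot be fully told apart. By symbol Rpl3 had 0 copies. Those of Rpl7a, Rplp1 and Rpl37a held a median of 0.02%, 0.03% and 0.84% of the summed CPM of member and copies.

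Between the identifier groups the members were higher in the decimal libraries. The difference decimal minus E21DCD was past an adjusted p of 0.05 (limma, Benjamini-Hochberg over 15150 genes, n = 68 and 51) for 51 of 70 members, all higher, while 15.1% of all tested genes were called higher and 12.6% lower. The median difference was 0.24 on the log2(CPM + 1) scale over the members and 0.01 over all tested genes. By role, 21 of 29 small-subunit, 28 of 38 large-subunit and 2 of 3 stalk genes rose. Among members known from Diamond-Blackfan anaemia, 16 of 19 rose, Rps19 with a difference of 0.25 and Rpl5 and Rpl11 with 0.23 each. Without the striatal-like libraries 12 of the 19 rose, Rps19 no longer among them (limma adjusted p = 0.104), and with median-of-ratios scaling as well 7 did.

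The libraries that stand apart moved these counts. Without the 11 striatal-like libraries 32 members were higher (5.29% of all genes, with 3.48% lower), and without decimal replicate 15 as well, 33 (10.5%, with 4.42% lower). With median-of-ratios scaling and without the 11, 21 were higher (5.71%, with 5.16% lower), and without all 18 libraries 66 (19.2%, with 15% lower). No member was lower in any of these. In the remaining settings between 49 and 56 members were higher, while the share of all genes called higher was 14.3% with median-of-ratios scaling, 6.78% with all detected genes, 14.8% with a mean of at least 3, 14.6% with a pseudocount of 0.1, 16.4% with depth as a covariate, 21.9% without decimal replicate 15 and 16.5% with the reassigned libraries counted as E21DCD. Without all 18 libraries, Rpl7a, Rpl12, Rps25 and Rps14 were the 4 members not past the threshold, and these are also the 4 with the lowest r over all libraries.

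With all libraries Rplp1 had the largest rise, while without the striatal-like ones Rpl21 did. Rplp1 ran from 8.05 over a median of 8.68 to 11.85 in the decimal, from 7.70 over 8.27 to 9.77 in the E21DCD and from 8.01 over 8.46 to 8.81 in the reassigned libraries. The ranges overlapped, with the decimal group higher in its lowest and median library. The highest decimal value was that of decimal replicate 15. Without that library and the striatal-like ones, the highest value in any group was 9.77. The difference was 0.47 ± 0.09 (SE, limma adjusted p = 0.000115), and 0.35 ± 0.09 without the striatal-like libraries (limma adjusted p = 0.00974).

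Rpl21, of the large subunit, ran from 7.92 over 8.33 to 10.66 in the decimal, from 7.66 over 7.97 to 8.77 in the E21DCD and from 8.04 over 8.13 to 8.40 in the reassigned libraries. The ranges overlapped, and the decimal median lay inside the E21DCD range. The highest decimal value was that of decimal replicate 15. Without that library and the striatal-like ones, the highest value in any group was 9.04. Its difference was 0.40 ± 0.06 (SE, limma adjusted p = 3.21e-06), and 0.37 ± 0.06 without the striatal-like libraries (limma adjusted p = 0.000109).

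Rps27 (0.38), Rps21 (0.38), Rps24 (0.37), Rps12 (0.37) and Rpl35a (0.37) were among the next. Of these, Rps27, Rps24 and Rpl35a are mutated in Diamond-Blackfan anaemia, and Rps12 fell short of the threshold without the striatal-like libraries under median-of-ratios scaling (limma adjusted p = 0.0786). At the other end, Rpl7a had a difference of 0.01 ± 0.05 (limma adjusted p = 0.871), Rpl15 one of 0.01 ± 0.05 (limma adjusted p = 0.859) and Rpl10a one of 0.04 ± 0.05 (limma adjusted p = 0.498). Without the striatal-like libraries the difference of Rpl7a was -0.005. Rpl7a ran from 7.22 over 7.67 to 8.19 in the decimal, from 7.29 over 7.62 to 8.55 in the E21DCD and from 7.28 over 7.61 to 7.94 in the reassigned libraries, so that the 3 medians lay within 0.06 of each other.

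**Figure D5:**
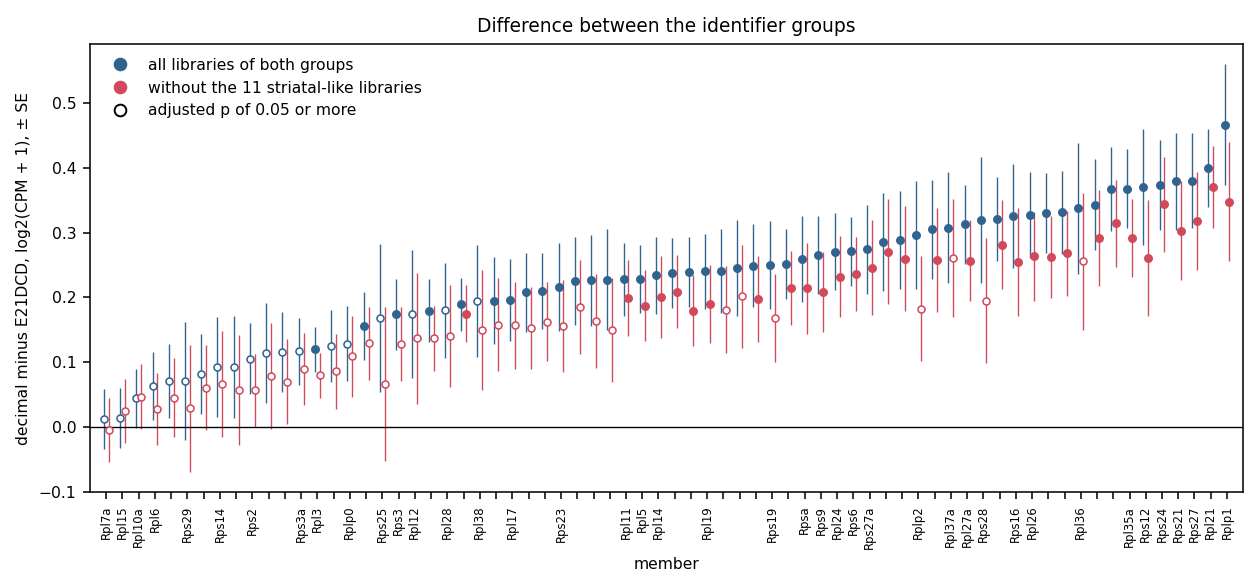
Difference decimal minus E21DCD (vertical axis, log2(CPM + 1) scale) for the 70 members (horizontal axis, in ascending order), with all libraries and without the 11 striatal-like libraries; bars are ± SE from limma and open points have an adjusted p of 0.05 or more. All differences with all libraries are above 0, from 0.01 for Rpl7a to 0.47 for Rplp1.

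Set against the mean of all members, the differences were not equal, and those above and below that mean balance by construction. In a fit of relative levels, 17 members were higher in the decimal libraries than the members on average and 17 were lower, while 1.39% of all tested genes were higher and 65.6% lower on that scale, since the members' own rise is subtracted from every gene. Among the relatively highest were Rplp1 (0.24 ± 0.04, SE, limma adjusted p = 5.26e-06), Rpl21 (0.17 ± 0.03, limma adjusted p = 5.51e-07), Rps27, Rps21, Rps24, Rps12 and Rpl35a (0.14 to 0.15). Among the relatively lowest were Rpl7a (-0.22 ± 0.05, limma adjusted p = 0.000303), Rpl15 (-0.22 ± 0.03, limma adjusted p = 4.52e-07), Rpl10a (-0.18), Rpl6 (-0.17) and Rps29 (-0.16).

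Without the striatal-like libraries 18 members were relatively higher and 14 lower (0.356% and 37.1% of all genes), and 27 of the 34 calls were shared. Among the members named here, Rps12 lost its call (0.08, limma adjusted p = 0.0845). Without all 18 libraries 23 were higher and 21 lower (0.825% and 90.9% of all genes), with all 34 calls shared. Over every setting run, 0.343% to 2.13% of all genes were relatively higher and 33% to 90.9% relatively lower. Within the stalk the members parted: Rplp1 was relatively higher, Rplp2 (0.07 ± 0.04, limma adjusted p = 0.122) did not pass the threshold, and Rplp0, the protein that anchors the P proteins, was relatively lower (-0.10 ± 0.03, limma adjusted p = 0.00523), a call that was lost without the striatal-like libraries (limma adjusted p = 0.0681).

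The 11 reassigned libraries were set against the 51 E21DCD libraries. No member was past the threshold by limma, as 0% of all tested genes were, and 1 member had an unadjusted p under 0.05, as 4.18% of all tested genes did. That was Rpl12, with a difference of 0.35 ± 0.17 (SE, limma adjusted p = 0.912). The differences ran from -0.11 for Rps29 to 0.35, with a median of 0.02. Without the end libraries the median was 0.12, 31 members had an unadjusted p under 0.05, as 8.74% of all tested genes did, and the members' lowest adjusted p was 0.36 by limma. With median-of-ratios scaling, all libraries included, the members' median was -0.0004.

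For the related lists, the same comparison of decimal with E21DCD libraries called 8 of 21 other terminal oligopyrimidine mRNAs higher and 1 lower, with a median difference of 0.07, beside 15.1% of all tested genes higher and 12.6% lower. Tpt1, a protein tied to growth control, rose most (0.34 ± 0.06, limma adjusted p = 4.45e-05), and Eif4a2, an RNA helicase of initiation, fell by 0.10 (limma adjusted p = 0.0467), a call lost without the striatal-like libraries (limma adjusted p = 0.267). Of the first 2 genes of that list, Eef1a1 had a difference of 0.07 (limma adjusted p = 0.21) and Eef1b2 one of 0.18 (limma adjusted p = 0.0142). The X-linked Rpl36a rose by 0.45 ± 0.07 (limma adjusted p = 5.36e-06), and Rpl10, also X-linked, had 0.06 (limma adjusted p = 0.364).

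Higher were 7 of 22 biogenesis genes, with Ncl (nucleolin, 0.13, limma adjusted p = 0.000411) and Npm1 (nucleophosmin, 0.09, limma adjusted p = 0.0446) among them, 4 of 21 initiation factors, 1 of 10 genes of RNA polymerase I and 2 of 12 genes of ribosomal stress and quality control, and none of these lists had a lower call. Against the 15.1% of all tested genes called higher with all libraries, the shares of the last 3 lists in that setting are near the background. Among mTOR and the regulators, 1 of 15 was higher, Deptor (0.28 ± 0.07, limma adjusted p = 0.00287), and 1 was lower, Larp1 (-0.12 ± 0.03, limma adjusted p = 0.00331). Neither passed without the striatal-like libraries (limma adjusted p = 0.181 for both), while Tsc2, an inhibitor of mTOR signalling, was then higher (0.16, limma adjusted p = 0.0241). Mitochondrial ribosomal genes were higher in 7 of 20 for the large and 3 of 18 for the small subunit. Respiratory chain genes were higher in 7 of 21, and none of these was lower with all libraries. In that setting the share of the small mitochondrial subunit is near the background too. Without the striatal-like libraries, where 5.29% of all tested genes were higher and 3.48% lower, none of these lists had more higher calls than with all libraries. Higher were then 5 of 21 other terminal oligopyrimidine mRNAs, 2 of 22 biogenesis genes, 4 of 21 initiation factors, 1 of 10 genes of RNA polymerase I and 0 of 12 of stress and quality control. Of the mitochondrial ribosome 3 of 20 large-subunit genes were higher and 1 lower, Mrpl10 (-0.11, limma adjusted p = 0.0398), and 0 of 18 small-subunit genes, while 3 of 21 respiratory chain genes were higher. Npm1 was no longer past the threshold (limma adjusted p = 0.353). Without all 18 libraries 19.2% of tested genes were higher and 15% lower. Higher were 13 of 21 other terminal oligopyrimidine mRNAs and 15 of 21 respiratory chain genes. Of the mitochondrial ribosome, 13 of 20 large-subunit and 11 of 18 small-subunit genes were higher. So were 9 of 21 initiation factors and 8 of 22 biogenesis genes (1 lower). Of RNA polymerase I it was 2 of 10, and of stress and quality control 1 of 12. Of the regulators 2 of 15 were higher and 4 lower.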

How the data were processed

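RNA-seq of 164 prelimbic cortex samples is listed in the labels, of which 130 have a column and 34 are not analysed here. All per-sample columns were used (0 left out). The deposited values are log2 of estimated counts plus 1, without scaling for depth; reads were quantified with kallisto 0.48, per the submitters' processing notes, and the build is not given in the sources used here. All 70 deposited positions of members match gene ends of the RefSeq table of GRCr8. Values were returned to the linear scale, scaled to 1000000 per library (CPM), and log2(CPM + 1) was taken, so a fold of a low gene is understated. Genes with a mean of at least 1 (15150) were fitted with limma 3.58.1 (trend, two-sided) in R 4.3.3, with Benjamini-Hochberg adjustment over all of them. Relative levels subtract the mean of the other members where they are described. In the limma fit of relative levels the mean of all members was subtracted, the gene's own level included. Python 3.11.15, numpy 2.4.6, pandas 2.3.3, scipy 1.17.1 and matplotlib 3.10.9 were used, and the fits were tested on simulated data.

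Members and gene lists were chosen with earlier results of these data known. Members were named by rule: the 10 highest and 10 lowest r, the 10 largest relative SD, and the 8 largest differences in each direction past the threshold; for lists, the first 2 tested genes and the largest call in each direction. Other genes, some list genes and gaps were named after their values were seen. Alternatives were other scaling, filters, a pseudocount of 0.1, depth as a covariate and subsets of libraries. Some genes that this rule names are not reported here, and figure axes name only genes of the text.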

Additional observations from a re-analysis of the deposited data

How the results depend on the processing

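The count of 51 members higher in the decimal libraries was 32 without the 11 striatal-like libraries, 33 without these and decimal replicate 15, and 21 with median-of-ratios scaling without the 11; every one of those called was among the 51. The cause was not tested. It was 52 without decimal replicate 15, lay between 49 and 56 under other scaling, other filters, a pseudocount of 0.1, depth as a covariate and with the reassigned libraries counted as E21DCD, and was 66 without 18 libraries. Alternatives without decimal replicate 15, and median-of-ratios scaling without the 11, were chosen after seeing the data. The relative counts of 17 and 17 stayed between 17 and 23 higher and between 13 and 21 lower. The median r of the members ran from 0.92 to 0.95. Of single members, the r of Rpl7a was 0.71 without decimal replicate 15 and 0.69 with median-of-ratios scaling, in place of 0.58, and that of Rps25 was 0.50 without 18 libraries, in place of 0.69. No call past the threshold turned its sign. Among members not past it, the difference of Rpl7a was -0.005 without the 11, that of Rpl15 -0.002 without decimal replicate 15, and those of Rpl7a and Rps29 -0.002 and -0.03 without both; the members' median of reassigned minus E21DCD turned from 0.02 to -0.0004 with median-of-ratios scaling. Median-of-ratios factors ran from 0.53 to 2.14.

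No paired analysis was possible because the labels give no replicate numbers shared between groups. Groups have more than 10 libraries, so single libraries were left out only where they stood apart. Copies with near-identical sequence limit the values of single members.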
